A study of Mus musculus with 6 samples.

Results

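The Cyp2 family of cytochrome P450 enzymes was followed in the kidneys of wild-type (WT) and Selenbp1-KO mice. Its members were taken by name, as every non-control probe whose annotated gene symbol is Cyp2 followed by a subfamily letter and a number, which gave 69 of 56605 probes and 49 genes. Total RNA of the left kidney was hybridized to 1-color Agilent arrays of 60-base probes. The 3 WT and 3 Selenbp1-KO animals were males aged 8 weeks, and all were fasted for 20 h before the kidney was taken. The methods name the WT mice as C57BL/6J and state no strain background for the Selenbp1-KO mice. No treatment other than fasting is given. The methods name a commercial breeder as the origin of the C57BL/6J males and refer to an earlier description of the Selenbp1-KO line, without calling the mice littermates, and the part of their origin in any difference was not tested. Values below are log2 signals of a probe relative to the 75th percentile of its array, and a difference is Selenbp1-KO minus WT on that scale. Since probes differ in affinity, levels were compared between mice and not between genes.

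Cyp2 enzymes are heme proteins of the endoplasmic reticulum that insert 1 oxygen atom into lipophilic substrates, with electrons delivered by P450 oxidoreductase. In rodents the Cyp2a, Cyp2b, Cyp2c and Cyp2d subfamilies have expanded into clusters of similar genes that metabolize drugs, steroids and fatty acids, and in the kidney most P450 activity resides in the proximal tubule. Cyp2c and Cyp2j members include the epoxygenases that turn arachidonic acid into epoxyeicosatrienoic acids, a branch of the lipid metabolism that the study set out to examine.

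The family lies in few places in the mouse genome (mm9 build, as the probes are annotated). The 16 Cyp2c genes are on chromosome 19, the 10 Cyp2d genes on chromosome 15, the 6 Cyp2j genes on chromosome 4, Cyp2u1 on chromosome 3 and Cyp2w1 on chromosome 5. Of the 15 genes on chromosome 7, 13 of the Cyp2a, Cyp2b, Cyp2f, Cyp2g, Cyp2s and Cyp2t subfamilies fall within 1.356 Mb, while Cyp2e1 and Cyp2r1 lie apart from them. Of the 4 Cyp2a genes in this cluster, Cyp2a22 fell in Selenbp1-KO mice and Cyp2a4 and Cyp2a5 were lower without overlap but did not pass the test. The 110 bases before the annotated start of each Cyp2a gene are shown (RefSeq, GRCm38.p6), with TATAAA and CAAAGTCC in capitals. The Cyp2a4 stretch is chr7:26307082-26307191 on the plus strand, that of Cyp2a5 chr7:26835229-26835338 on the plus strand, that of Cyp2a22 chr7:26939387-26939496 on the minus strand and that of Cyp2a12 chr7:27028980-27029089 on the plus strand.
Cyp2a4: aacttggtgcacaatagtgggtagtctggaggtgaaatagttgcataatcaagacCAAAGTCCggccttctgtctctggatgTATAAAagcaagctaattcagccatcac
Cyp2a5: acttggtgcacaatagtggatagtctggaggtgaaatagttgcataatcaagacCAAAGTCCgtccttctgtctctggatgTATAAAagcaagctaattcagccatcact
Cyp2a22: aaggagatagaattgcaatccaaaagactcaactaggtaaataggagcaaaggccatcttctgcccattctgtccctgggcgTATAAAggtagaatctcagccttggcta
Cyp2a12: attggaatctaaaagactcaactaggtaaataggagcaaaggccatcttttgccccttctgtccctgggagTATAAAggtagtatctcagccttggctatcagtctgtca

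Within each of 2 pairs the promoters were alike. Over the 250 bases before the start, Cyp2a4 and Cyp2a5 were identical in 245 of 251 aligned columns (97.6%) and Cyp2a22 and Cyp2a12 in 219 of 264 (83.0%), whereas Cyp2a4 and Cyp2a22 were identical in 55.8%. The letters TATAAA stood in all 4 and in 12.4% of the 32851 promoters of the table on either strand. The letters CAAAGTCC, part of the binding motif of the hepatocyte nuclear factor HNF4, stood in Cyp2a4 and Cyp2a5 and not in the window of Cyp2a22 or Cyp2a12, against 1.2% of all promoters, and in 7 Cyp2c genes. GTTAAT, part of the motif of HNF1, was present in Cyp2a4 and Cyp2a5, farther from the start than the stretch shown, and in 6.43% of all promoters. TTANGTAA, 1 form of the core bound by the PAR bZIP factors Dbp, Tef and Hlf, was in none of the 4 and in 2.06% of all promoters. Other forms of that site were not searched, so the 4 promoters are not shown to lack one. These motifs do not overlap each other in the sequences shown, they were searched on both strands, and a match is a match of letters only.

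The probe for Selenbp1 read 7.07, 7.02 and 7.02 in the WT mice and 4.13, 3.98 and 4.10 in the Selenbp1-KO mice (adjusted p = 0.0021 in limma), so it was lower on every array labelled Selenbp1-KO. Proximal tubule markers were well above background on every array in 10 of 10 genes and their summed level was 10.23 to 10.55 in WT and 10.42 to 10.45 in Selenbp1-KO mice. None of the 6 markers of distal nephron and collecting duct and none of the 6 of adrenal cortex passed the threshold used below, and Cyp11a1, Cyp11b1 and Mc2r of the latter were not well above background on any array. All 6 arrays lay on 1 slide. WT 2 and WT 3 were in its row 1, and WT 4 stood with the 3 Selenbp1-KO arrays in row 2. The 75th percentile signal was 711 and 751 in row 1 and 477 to 584 in row 2, so the position on the slide is partly confounded with the genotype. For this reason the differences the results turn on are given beside those within row 2, where WT 4 is the single WT array. A fit with the slide row as a block likewise sets WT 4 alone against the Selenbp1-KO arrays, and takes the spread from the Selenbp1-KO arrays and the WT pair of row 1.

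The counts of Cyp2 genes that passed depended on the processing, and those of the fit to all probes are given first. At the threshold of the study, an unadjusted limma p under 0.05, 2 of the 49 genes passed on their brightest probe: Cyp2a22, which fell, and Cyp2w1, which rose. The same threshold was passed by 8.00% of all 37028 genes, by 6.87% upward and by 1.13% downward. No Cyp2 probe passed after Benjamini-Hochberg adjustment over the 56097 probes tested, where the lowest adjusted limma p in the family was 0.279. By probe, 5 of 69 passed unadjusted, against 7.98% of all probes.

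A stricter set kept genes that the scanner flagged well above background on all arrays of WT mice, of Selenbp1-KO mice or of both. It held 35 Cyp2 genes, 33 of them well above background on all 6 arrays, and Cyp2a22 and Cyp2w1 were the 2 that passed, against 5.79% of the 19263 genes so restricted. The genotypes did not overlap in 4 Cyp2 genes that were lower in Selenbp1-KO mice (Cyp2a22, Cyp2a4, Cyp2a5 and Cyp2d26) and in 1 that was higher (Cyp2w1). Among all genes 3.87% were lower without overlap and 10.2% higher, and among genes well above background 6.52% and 12.5%. The median difference was -0.06 over the 35 Cyp2 genes and 0.02 over all genes so restricted. When limma was fitted to the stricter set of probes alone, Cyp2a4, Cyp2a5 and Cyp2d26 also passed downward, which made 4 of 35 lower and 1 higher, against 2.88% and 7.50% of the genes in that fit.

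**Figure D1:**
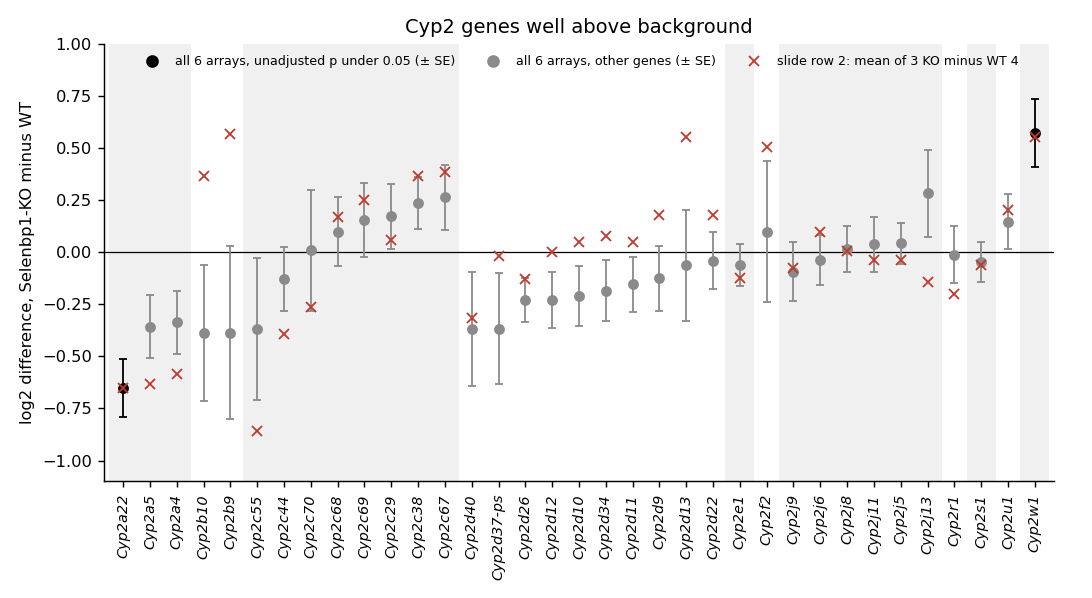
Log2 difference (Selenbp1-KO minus WT) with its standard error for the 35 Cyp2 genes well above background, ordered by subfamily (alternating shading) and within it by size. Black points passed an unadjusted limma p under 0.05 and crosses give the difference within slide row 2; Cyp2a22 and Cyp2w1 keep their size within row 2, and most Cyp2d genes move from below 0 to about 0 or above.

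Cyp2a22 was the only Cyp2 gene to fall at the unadjusted threshold in the fit to all probes. Cyp2a22, a little-studied member, is measured by a probe at chr7:27722746-27722805 (mm9, minus strand), which starts with actacgaggacaaagagttcctgtcactgc. It read 0.77, 1.06 and 0.91 in WT 2, WT 3 and WT 4 and 0.43, 0.27 and 0.08 in Selenbp1-KO 1, 2 and 3. The lowest WT array was thus above the highest Selenbp1-KO array. The difference was -0.65 with a standard error of 0.14 (adjusted p = 0.279 in limma), and it was -0.65 within row 2. It passed the unadjusted threshold in 20 of 20 alternative processings, with differences from -0.74 to -0.56. Filters, variance models and probe choices left the difference of Cyp2a22 at -0.65, so not all of these are separate checks. When limma modelled the variance as a trend of intensity with robust moderation, its adjusted p was 0.00036, and over the alternatives the adjusted p ran from there to 0.632.

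Cyp2a4, a steroid 15-alpha-hydroxylase, read 6.84, 6.92 and 7.25 in the WT mice and 6.81, 6.53 and 6.65 in the Selenbp1-KO mice. Cyp2a5, the coumarin 7-hydroxylase, read 6.65, 6.77 and 7.12 against 6.59, 6.42 and 6.45. In both genes WT 4 was the highest array, Selenbp1-KO 1 lay just below the lowest WT array, and the genotypes were separated by a narrow gap. The differences were -0.34 for Cyp2a4 and -0.36 for Cyp2a5, each with a standard error of 0.15 and an adjusted limma p of 0.279, and neither passed. With the slide row as a block they were -0.58 and -0.63 and both passed the unadjusted threshold, with adjusted limma p of 0.529 and 0.397. With WT 4 left out they were -0.21 and -0.22 and neither passed. Both were negative in 20 of 20 alternatives and passed the unadjusted threshold in 6 and 8 of them. The sign was largely fixed in advance. Filters, variance models and probe choices returned the same differences. Without overlap between the genotypes, leaving out 1 array could not change the sign. Because the coding sequences of Cyp2a4 and Cyp2a5 are also nearly the same, cross-hybridization between their probes was not tested and the 2 genes are not independent observations. The last member, Cyp2a12, was well above background on only some arrays and is described with the Cyp2c genes of that kind.

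**Figure D2:**
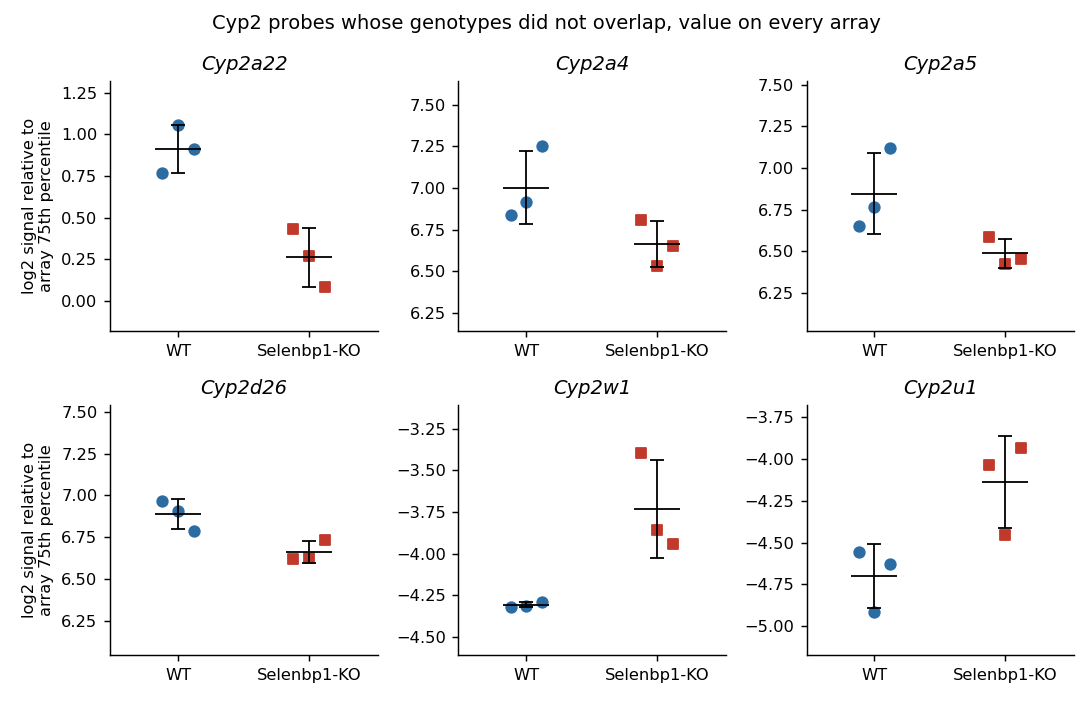
Log2 signal relative to the array's 75th percentile for the 6 probes well above background whose genotypes did not overlap, with 1 point per mouse (circles WT, squares Selenbp1-KO, in replicate order) and mean ± SD; each panel spans 1.5 log2 units. The gap between genotypes is wide in Cyp2a22 and Cyp2w1 and narrow in Cyp2a4, Cyp2a5, Cyp2d26 and the Cyp2u1 probe for an Ensembl transcript.

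The 10 Cyp2d genes, relatives of the human debrisoquine hydroxylase, had negative differences, from -0.37 to -0.04, and none passed the threshold. In 9 of them the probe was well above background on all 6 arrays, and in Cyp2d40, whose difference was -0.37, on the WT arrays and 2 of the Selenbp1-KO arrays. Negative differences were found in 45.8% of all genes well above background. Cyp2d26 read 6.97, 6.91 and 6.79 in the WT mice and 6.62, 6.62 and 6.73 in the Selenbp1-KO mice, without overlap. Its difference was -0.23 (standard error 0.10, adjusted p = 0.279 in limma), and -0.13 within row 2. On the second Cyp2d26 probe WT 2 and WT 3 read 5.33 and 5.32, WT 4 read 4.97 and the Selenbp1-KO mice 4.98 to 5.11, so the genotypes overlapped there.

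This placing of WT 4 recurred through the subfamily. WT 4 was the lowest WT array in 9 of 10 Cyp2d genes, against 29.9% of all genes well above background, and it lay within the range of the Selenbp1-KO arrays in 6 of 10. Cyp2d9, a male-predominant steroid 16-alpha-hydroxylase, read 4.62, 4.51 and 4.11 in the WT mice and 4.24, 4.27 and 4.35 in the Selenbp1-KO mice. Cyp2d12 read 4.78, 4.77 and 4.43 against 4.39, 4.37 and 4.53. Over all arrays their differences were -0.13 and -0.23 (standard errors 0.16 and 0.14), neither passing, and within row 2 they were 0.18 and 0.0026. Within row 2 the differences of the 10 genes ran from -0.32 to 0.55, with 7 positive. The Cyp2d genes are near-identical copies in part, so they are not independent observations.

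**Figure D3:**
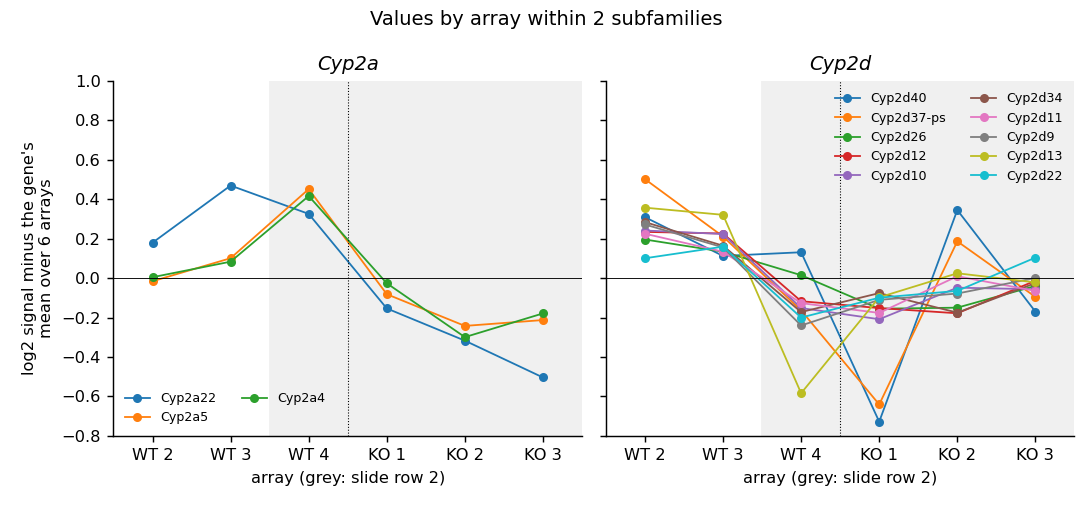
Log2 signal on each array minus the gene's mean over the 6 arrays, for the 3 Cyp2a and the 10 Cyp2d genes well above background, with 1 line per gene; the grey field marks slide row 2 and the dotted line parts WT from Selenbp1-KO. In Cyp2a4 and Cyp2a5 WT 4 is the highest array, whereas in 9 of 10 Cyp2d genes it is the lowest WT array and near the Selenbp1-KO arrays.

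In Cyp2b9 and Cyp2b10, known as targets of the constitutive androstane receptor, WT 4 was the lowest WT array, as in most Cyp2d genes. Cyp2b9 read -2.49, -2.83 and -4.09 in the WT mice and -3.71, -3.41 and -3.46 in the Selenbp1-KO mice. Cyp2b10 read -1.29, -1.55 and -2.55 against -2.25, -2.10 and -2.21. WT 4 was below every Selenbp1-KO array in both, and WT 2 and WT 3 were above. Their differences were -0.39 and -0.39 over all arrays (standard errors 0.41 and 0.33), neither passing, and 0.57 and 0.37 within row 2. A second Cyp2b10 probe was well above background in WT 2 alone, at -2.42, and read -6.05 or lower on the other 5 arrays.

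The number of Cyp2 genes that passed differed between processings, and the cause was not tested. With the slide row as a block, Cyp2b9 and Cyp2d13 were higher and Cyp2a22, Cyp2a4, Cyp2a5 and Cyp2c44 lower in Selenbp1-KO mice, against 2.44% and 3.65% of all genes in those directions. Without WT 4, 9 Cyp2 genes passed upward and 9 downward, against 30.4% and 1.46% of all genes, and 7 of the 9 upward were not well above background on any array. After adjustment 10 of the 49 passed in that fit, together with 8418 genes of the whole array. Of these 10, 6 were not well above background on any array, and Cyp2a22 was among the other 4 with an adjusted limma p of 0.049. With quantile normalization in place of the 75th percentile, Cyp2a22, Cyp2a4, Cyp2a5, Cyp2d26 and Cyp2e1 passed downward and Cyp2w1 upward, against 3.73% and 5.34% of all genes. The median difference of all genes was 0.13 with the 75th percentile and 0.00494 with quantile normalization, while that of the Cyp2 genes was 0.01 and -0.03.

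Among the kidney epoxygenases no difference passed in the fit to all probes. Cyp2j5, an arachidonic acid epoxygenase abundant in mouse kidney, read 5.95, 5.96 and 6.07 in the WT mice and 6.05, 5.98 and 6.09 in the Selenbp1-KO mice, with overlap. Its difference was 0.04 with a standard error of 0.10, and the second Cyp2j5 probe also gave 0.04. The 6 Cyp2j genes, all well above background, differed by -0.09 to 0.28. The highest was Cyp2j13, at 3.77, 3.82 and 4.43 against 4.45, 4.26 and 4.16, where WT 4 fell in with the Selenbp1-KO arrays and the difference within row 2 was -0.14. All 4 probes of Cyp2j13 had positive differences over all arrays, from 0.06 to 0.28.

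Cyp2c44, listed by RefSeq as Cyp2c23 and likewise a renal epoxygenase, read 1.74, 1.57 and 2.05 in the WT mice and 1.76, 1.64 and 1.58 in the Selenbp1-KO mice. The difference of -0.13 (standard error 0.15) rested on WT 4, the highest array: it was 0.01 without WT 4 and -0.39 with the slide row as a block. Cyp2e1, which oxidizes ethanol and ketone bodies and is known to respond to fasting, read 7.36, 7.36 and 7.45 against 7.34, 7.40 and 7.24. Its difference was -0.06 (standard error 0.10), -0.12 within row 2 and -0.13 on its second probe, and it did not pass. The value depended on the scaling: it was -0.18 after quantile normalization and -0.18 in the authors' table, and in both it passed the unadjusted threshold, with adjusted limma p of 0.475 and 0.478.

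Cyp2c29, Cyp2c67, Cyp2c68 and Cyp2c69 had differences of 0.10 to 0.26, none passing, and in each of them Selenbp1-KO 2 was the lowest of the Selenbp1-KO arrays. The probes of Cyp2c67 and Cyp2c68 are shown to make plain how close they are, with the differing bases of a 30-base window in capitals.
Cyp2c67: acAcagtcccagAaattccatctatattcc
Cyp2c68: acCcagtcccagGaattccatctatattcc
In full they share 55 of 59 aligned bases (chr19:39683429-39683488 and chr19:39763420-39763479, mm9, minus strand), and the signals of these genes are uncertain as measures of either one.

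Cyp2a12, Cyp2c37, Cyp2c40, Cyp2c50 and Cyp2c54 were well above background on only some arrays, and all but Cyp2c40 were most readily seen in Selenbp1-KO 3. They are named here because of their values. Cyp2c54 read -6.19, -5.31 and -5.44 in the WT mice and -7.03, -4.89 and -3.63 in the Selenbp1-KO mice, and Cyp2a12 read -5.32, -5.20 and -6.22 against -7.04, -4.42 and -3.77. Cyp2c37 and Cyp2c50 read -3.52 and -3.91 in Selenbp1-KO 3, the only array on which they were well above background. The genotypes overlapped in all 5 genes.

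Some hepatocyte markers ran in a like order over the arrays, and others did not. Alb, which encodes albumin, read 0.87, 0.81 and 0.87 in the WT mice and -0.80, 1.64 and 2.16 in the Selenbp1-KO mice, and Ahsg, which encodes fetuin-A, read -0.37, -0.71 and -1.07 against -6.87, 0.17 and 0.83. Ttr, which encodes transthyretin, read 2.90, 3.00 and 3.01 against 3.31, 2.62 and 3.20, highest in Selenbp1-KO 1, and Serpina1b read 4.69 to 4.88 in WT and 4.70 to 4.82 in Selenbp1-KO mice, highest in WT 3. Of the 8 markers listed, Selenbp1-KO 3 was the highest of all arrays in 6 and Selenbp1-KO 1 the lowest in 4. All 4 of the latter were among those 6. Among genes well above background, as all 8 were, the shares were 15.0% and 14.6%. Both held in 1.40% of such genes and in 1.09% of all genes. Both also held in 3 of the 5 Cyp2 genes. These 5 were taken for being well above background on some arrays only, and Cyp2c37, Cyp2c50 and Cyp2c54 entered through 1 Selenbp1-KO array. A high value there was thus partly built in, and the share over all genes is not a like comparison for them. None of the 8 markers was below background throughout, their summed level was 5.57 to 5.76 in WT and 5.62 to 5.88 in Selenbp1-KO mice, and their part in the Cyp2 values was not tested. In tissue RNA, a change in the number of cells of a type cannot be told apart from a change in RNA per cell.

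**Figure D4:**
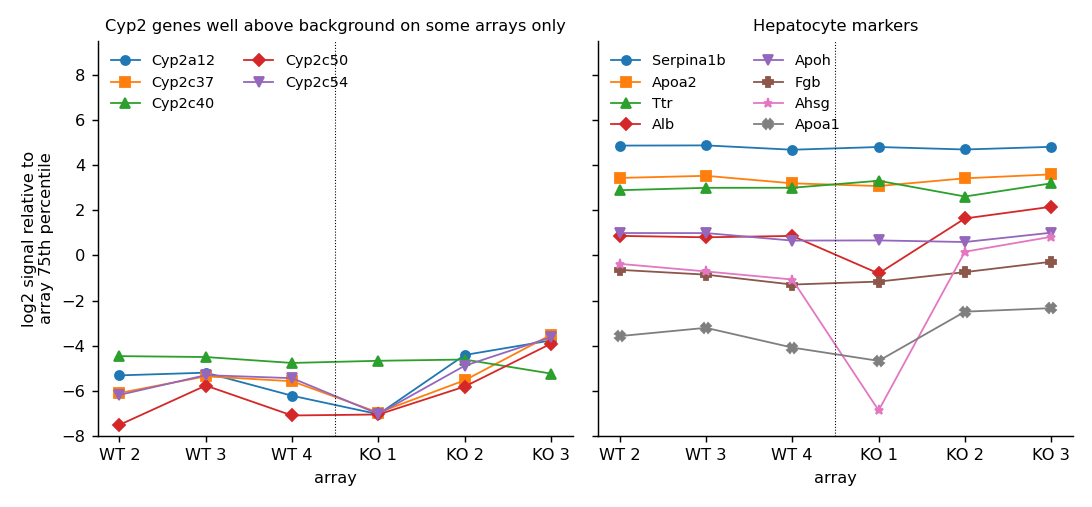
Log2 signal relative to the array's 75th percentile on each of the 6 arrays for the 5 Cyp2 genes well above background on some arrays only (left) and the 8 hepatocyte markers (right), with 1 line per gene and the dotted line between WT and Selenbp1-KO. Cyp2a12, Cyp2c37, Cyp2c50 and Cyp2c54 are highest in Selenbp1-KO 3, as are 6 of the 8 markers, among them Alb, Ahsg and Apoa1.

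Among subfamilies with a single member, Cyp2w1 rose. Cyp2w1, known from fetal gut and colon tumors, is measured by a probe at chr5:139831618-139831677 (mm9, plus strand), which starts with accacccttgccaacgggcggtcccgcgca. It read -4.32, -4.31 and -4.29 in the WT mice and -3.40, -3.86 and -3.94 in the Selenbp1-KO mice, all dim but well above background, with Selenbp1-KO 1 the highest. The difference was 0.57 with a standard error of 0.16 (adjusted p = 0.279 in limma), and 0.56 within row 2. It passed in 18 of 20 alternatives, with differences from 0.32 to 0.84, and not with the slide row or the replicate number as a block, where it was 0.56 and 0.41 (adjusted p = 0.828 and adjusted p = 0.173 in limma). The second Cyp2w1 probe was not well above background on any array, though it passed the unadjusted threshold. The difference of 0.84 came from averaging it with the first probe.

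Cyp2u1, a hydroxylase of long-chain fatty acids, had 3 probes that differed in sign and size. The brightest, annotated to an Ensembl transcript, read 7.77, 8.01 and 7.81 in the WT mice and 8.12, 7.82 and 8.09 in the Selenbp1-KO mice (difference 0.15, standard error 0.13, and 0.20 within row 2). It starts with actttatcattggtgtgtgtgtgtgtgtgt, and the repeated dinucleotide of this stretch makes its signal uncertain as a measure of Cyp2u1. The RefSeq probe gave -0.04. The probe for another Ensembl transcript read -4.56, -4.91 and -4.63 against -4.03, -4.45 and -3.93, without overlap, with a difference of 0.56 (standard error 0.18, adjusted p = 0.279 in limma) that passed the unadjusted threshold. It was 0.49 within row 2. The span annotated for it (chr3:130997965-130998356, mm9) is longer than the probe.

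Cyp2s1 differed by -0.05 (standard error 0.10) and Cyp2r1, a vitamin D 25-hydroxylase, by -0.01 (standard error 0.14), and by -0.06 and -0.20 within row 2, both with overlapping genotypes. Cyp2f2, which activates naphthalene in the airways, read -0.15, 0.32 and -0.53 in the WT mice and -0.46, 0.60 and -0.20 in the Selenbp1-KO mice. Within each genotype its highest array was that with the highest summed level of 5 fat markers, which was 4.75, 5.57 and 3.63 in the WT mice and 5.62, 6.89 and 4.43 in the Selenbp1-KO mice, while the respiratory markers Foxj1, Scgb1a1 and Sftpc were not well above background on any array. The part of the fat markers in the Cyp2f2 values was not tested.

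Another 9 Cyp2 genes were not well above background on any array: Cyp2b13, Cyp2b19, Cyp2b23, Cyp2c39, Cyp2c53-ps, Cyp2c65, Cyp2c66, Cyp2g1 and Cyp2t4. Their differences were positive in 8 of 9 with a median of 0.36, and the 15879 genes of the array that were likewise never well above background had a median of 0.38. These values describe the background of the arrays after scaling and give no level for the genes. One probe of Cyp2b19 passed the unadjusted threshold in this range.

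The genes that work with or regulate the Cyp2 enzymes were listed with 11 drug-metabolizing genes of the Cyp1 and Cyp3 families, 62 in all. Their counts moved with the processing. In the fit to all probes 3 passed, Nr1i3, Cyp3a13 and Cyp3a59, against 8.00% of all genes. After normexp background correction, after quantile normalization, in the authors' table and with a variance trend and robust moderation 10 to 13 passed. In that order the shares of all genes higher and lower were 11.4% and 0.548%, 5.34% and 3.73%, 5.37% and 3.71%, and 12.1% and 1.97%. Of 18 genes for electron donors and heme metabolism none passed the unadjusted limma threshold. Por, the P450 oxidoreductase, differed by -0.04 (standard error 0.10) and Cyb5a, cytochrome b5, by 0.17 (standard error 0.14). Of 4 epoxide hydrolases, which open the epoxides that Cyp2c and Cyp2j enzymes make, none passed. Ephx2, the soluble enzyme, differed by -0.06 (standard error 0.11) and Ephx1, the microsomal enzyme, by -0.29 (standard error 0.16).

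Of 29 regulators of Cyp2 genes, 1 passed, upward, while 5 were lower and 1 higher without overlap, against 3.87% and 10.2% of all genes. Among genes well above background, as 27 of the 29 were, the shares without overlap were 6.52% and 12.5%. Nr1i3, the constitutive androstane receptor, read -4.16, -4.06 and -3.54 in the WT mice and -3.60, -3.05 and -3.37 in the Selenbp1-KO mice, with overlap through WT 4. Its difference was 0.58 (standard error 0.22, adjusted p = 0.279 in limma), and 0.20 within row 2. The 5 that were lower, named after their values were seen, were the nuclear receptors Ppara and Rxra, the PAR bZIP factors Dbp and Hlf, and Arnt, the partner of the aryl hydrocarbon receptor. Ppara read 4.44, 4.51 and 4.47 in the WT mice and 4.17, 3.93 and 4.39 in the Selenbp1-KO mice, a difference of -0.31 (standard error 0.14, adjusted p = 0.279 in limma) and -0.30 within row 2. Hlf differed by -0.24, Dbp by -0.26, Rxra by -0.14 and Arnt by -0.14, and by -0.26, -0.51, -0.14 and -0.14 within row 2. Ppara and Hlf passed the unadjusted threshold downward after normexp correction, after quantile normalization, in the authors' table, with the variance trend and in the fit to the stricter set of probes. Dbp passed downward in all of these but the last. Neither Ppara nor Hlf passed with median scaling, with the replicate number as a block or with any single WT array left out. Nr1i2, the pregnane X receptor, and Hnf4a differed by 0.25 and -0.04 and did not pass. Stat5a was the regulator that was higher without overlap, by 0.20. Of 11 other drug-metabolizing genes of the Cyp1 and Cyp3 families, Cyp3a13 and Cyp3a59 passed upward, with differences of 0.47 and 1.14, and neither was well above background on any array.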

How the data were processed

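Kidney RNA of 3 WT and 3 Selenbp1-KO mice was measured on 6 arrays of 1 slide; the labels and the methods name different RNA extraction kits. The authors scanned the arrays with Agilent Feature Extraction (10.7.1.1 in the file headers, 9.5.1.1 in the submitters' processing notes) and deposited intensity values, background-subtracted and detrended within each array, and a p-value per spot for signal over background, with a flag for spots well above it. They also deposited a table of intensity values that keeps the order of probes within each array and has the same median in all 6 columns.

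Here log2 intensity minus the log2 75th percentile of the array was used, without control spots and outlier-flagged spots. The 56097 probes that reached a detection p under 0.05 on any array entered limma 3.58.1 (R 4.3.3, statmod 1.5.0) with eBayes, two-sided; p-values were adjusted over all of them. A gene was represented by its brightest probe. With 3 against 3 mice the smallest exact permutation p is 0.10, so no such test is given. Named Cyp2 genes were those that passed, those whose genotypes did not overlap and known kidney members (Cyp2e1, Cyp2j5, Cyp2c44, Cyp2d9, Cyp2d12, Cyp2s1, Cyp2u1, Cyp2r1, Cyp2a4, Cyp2a5, Cyp2d26), and of the partner and regulator genes those that passed and Por, Cyb5a, Ephx1, Ephx2, Nr1i2, Nr1i3 and Hnf4a; Cyp2b9, Cyp2b10, Cyp2d13, Cyp2f2, Cyp2j13, Cyp2a12 and the Cyp2c genes other than Cyp2c44 were named after their values were seen. The members, motifs and gene lists were chosen with earlier results of these data known. Of the 69 probes, 62 matched a RefSeq name by accession, 1 gene under another symbol; mouse promoters came from a RefSeq table (42 for 40 Cyp2 genes). Sets of 20 alternatives covered background correction, scaling, filters, variance model, slide row, replicate number, single arrays and probe choice. Depth does not apply to arrays; the number of mice limits the precision.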

Additional observations from a re-analysis of the deposited data

How the results depend on the processing

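Over the 20 alternatives the median difference of the Cyp2 genes stayed within the spread between mice, at -0.06 to 0.03 with single arrays left out. The 62 listed genes, called partners below, also hold 11 drug-metabolizing P450s of the Cyp1 and Cyp3 families. The counts passing an unadjusted p under 0.05, of 1 Cyp2 gene upward, 1 downward and 3 of these 62, did not stay. They were 3, 4 and 10 after normexp background correction (11.4% of all genes higher, 0.548% lower); 8, 2 and 6 with median scaling (25% and 1.31%), where 7 of the 8 were not well above background on any array; and 2 and 4 Cyp2 genes with the slide row as a block. With the upward count at 1, the downward and partner counts were 5 and 13 after quantile normalization (5.34% of all genes higher, 3.73% lower). They were 5 and 12 in the authors' table (5.37% and 3.71%) and 6 and 11 with a variance trend and robust moderation (12.1% and 1.97%). By the methods' t-test they were 2 and 6 (5.61% and 2.1%). That test is stated there for comparisons in general, while the arrays were tested with limma. Among the 35 well above background 4 Cyp2 genes were lower, against 2.88% of the genes in that fit. With single arrays left out, the counts ran from 1 to 9 upward, 1 to 9 downward and 0 to 7 among partners. All genes then ran from 2.45% to 30.4% higher and from 0.832% to 1.68% lower. Both counts of 9 came without WT 4, against 30.4% and 1.46% of all genes. The cause of these shifts was not tested.

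The replicate numbers are shared by only 2 pairs (deviations correlated at 0.171 and 0.187 over 28513 probes), so they do not show a pairing. With the replicate number as a block, 10 Cyp2 genes were higher and 3 lower, against 31.7% and 1.44% of all genes. Of the 10, 6 were not well above background on any array. The 12 listed genes that passed were Foxa2, Nr1i2, Nr1i3 and genes of the Cyp1 and Cyp3 families. Foxa2, Cyp3a13, Cyp3a16, Cyp3a25, Cyp3a44, Cyp3a57 and Cyp3a59 were not well above background on any array.

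Some differences near 0 changed sign: Cyp2j5 to -0.0442 after quantile normalization, -0.0434 in the authors' table and -0.0352 with the slide row as a block; Cyp2d9 to 0.18 and Cyp2d12 to 0.0026 with the slide row as a block; Cyp2r1 to 0.0671 with the replicate block and -0.103 to 0.0841 with single arrays left out; Cyp2c44 to 0.00571 without WT 4, from -0.236 without WT 3; Cyp2s1 to 0.19 with its probes averaged; and Cyp2u1 to -0.0355 on its brightest RefSeq probe, a choice made after seeing the data. Cyp2a22 passed in 20 of 20 alternatives, which draw on the same arrays and in part give the same difference.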
